A study of Cricetulus griseus with 24 samples.

Results

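The genes examined encode the protein subunits of the mitochondrial ribosome. They were taken from the deposited count table by symbol, as every row whose name begins with Mrpl or Mrps followed by a number. The rule found 77 of the 28037 genes in the table, 48 named Mrpl and 29 named Mrps, symbols given for the large and the small subunit. The symbol does not settle the subunit, as Mrps18a sits in the large subunit. Splits of the counts below go by symbol. Of these, 76 had counts and passed the filter for testing, whereas Mrpl1 had 0 counts in all libraries.

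The mRNA was sequenced from 3 Chinese hamster ovary cell lines at 2 growth phases. A0 is an antibody-producing clone of CHO DG44 that was made by co-transfection of 2 plasmids, one with the IgG heavy chain, the other with the light chain and a neomycin resistance gene selected with G418. A1 is its higher-producing progeny after methotrexate amplification, a stepwise selection with rising methotrexate. A0 and A1 share the host, the transgenes and the G418 selection, whereas the methotrexate amplification belongs to A1. Each is 1 clone. CHO-S is a line that makes no antibody, used as the negative control, and its libraries carry the term NDST in their titles, which the labels do not explain. All lines were grown as suspension batch cultures in serum-free medium. The exponential phase had 4 cultures of A0 (8 libraries, summed per culture) and 3 each of A1 and CHO-S, and the stationary phase had 4, 3 and 3. The labels number the samples but do not say that they came from separate cultures, so the p-values measure the spread between these samples.

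Mitochondria carry their own ribosome, which translates the few respiratory chain subunits that remain encoded in the mitochondrial genome. Its RNAs come from the mitochondrial genome, whereas all of its proteins are encoded in the nucleus, translated in the cytosol and imported. Some of these proteins have counterparts in bacterial ribosomes and others are specific to mitochondria, and assembly needs dedicated GTPases, helicases and RNA-modifying enzymes.

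The libraries held 1038026 to 14652646 counts on genes (median 12166034). CHO-S stationary culture 1 stood apart with the lowest total and 32.8% of its counts outside annotated genes, and the counts of members called that rest on it are given with and without it. A0 cultures 1 and 2 have a second exponential library marked RLT, which differed from the first by more than counting error (chi-square per degree of freedom 29.0 and 6.38), and cultures 3 and 4 have a duplicate library (3.29 and 2.88).

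The mitoribosomal protein genes together took a small and similar share of the counts in all 3 lines at exponential phase. The share per culture was 0.440% ± 0.0433 (SD, n = 4) in A0, while A1 had 0.443% ± 0.00464 (SD, n = 3) and CHO-S had 0.441% ± 0.00503 (SD, n = 3). Among single libraries it was lowest in CHO-S stationary culture 1, at 0.313% (95% Wilson interval 0.303% to 0.324%), and highest in the RLT library of A0 culture 1, at 0.532% (0.529% to 0.536%). These intervals cover counting error only. The first library of that same culture was at 0.444%, so this pair of libraries was further apart than the means of the lines were at this phase.

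**Figure D1:**
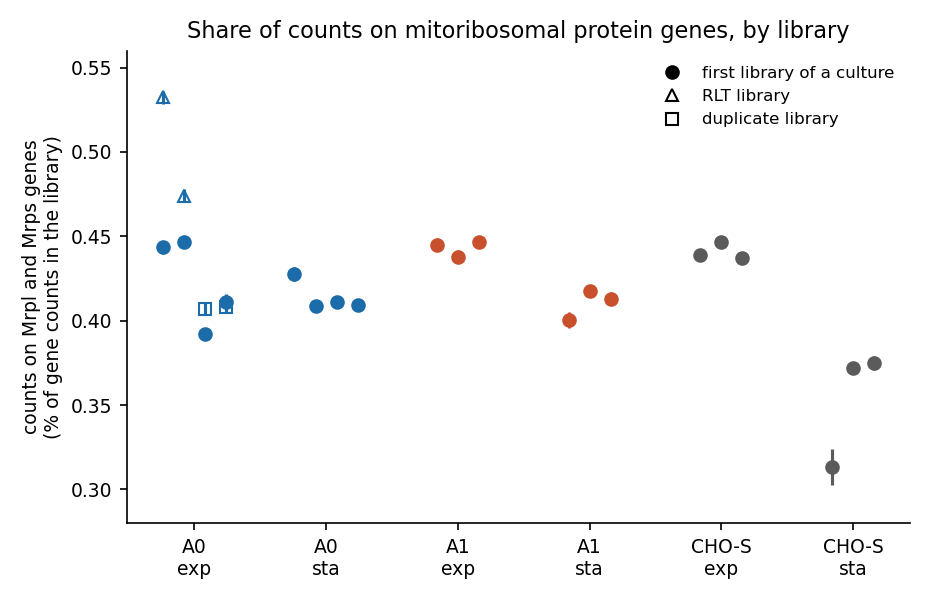
Percent of the gene counts of each library that fell on the 77 mitoribosomal protein genes, by line and phase, with 95% Wilson intervals; filled circles are first libraries, open triangles RLT libraries and open squares duplicates, and the axis does not start at 0. The A1 and CHO-S exponential libraries sit together near 0.44%, the A0 exponential libraries spread from 0.392% to 0.532%, and CHO-S stationary culture 1 is lowest.

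At stationary phase the summed level was lower in A1 and CHO-S. It is given in CPM, which are counts scaled to a common library size after normalisation by the trimmed mean of M-values (TMM). In A1 it was 4378, 4421 and 4449 CPM at exponential phase and 3720, 3988 and 3902 CPM at stationary phase. In CHO-S it was 4594, 4646 and 4524 CPM and then 3356, 3896 and 3819 CPM. In both lines the phases did not overlap, also with CHO-S stationary culture 1 set aside. In A0 they did, with 5031, 4633, 4092 and 4010 CPM at exponential phase and 4269, 3986, 3949 and 3963 CPM at stationary phase, where cultures 1 and 2 lay above cultures 3 and 4 at exponential phase. Fewer cells of a kind and less RNA per cell cannot be told apart in bulk samples.

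Within the module single genes differed widely in level. Averaged over the 20 cultures, Mrps18a had the highest level at 292.8 CPM and Mrpl13 the lowest at 7.49 CPM. Mrps18a was at 567 to 620 CPM in exponential CHO-S but at 185 to 255 CPM in exponential A0, where Mrpl12 was at 224 to 419 CPM. These levels are not scaled to gene length, so they rank counts and not transcripts.

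The comparison of A1 with A0 asks what differed between the amplified progeny and the parental clone. At exponential phase 17 of 76 members were higher in A1, where 12% of all genes tested were called higher, and 9 were lower, where 13.8% were called lower (edgeR's quasi-likelihood test, Benjamini-Hochberg adjusted p under 0.05 over all genes). The median log2 fold change was 0.035 over the members and -0.039 over all genes. Genes named Mrpl gave 14 of the 17 higher and 6 of the 9 lower calls among 47 tested, and genes named Mrps 3 and 3 among 29. Of the 43 members with a bacterial counterpart 12 were higher and 4 lower, and of the 30 specific to mitochondria 5 were higher and 5 lower. Members thus passed the threshold in both directions.

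Mrpl45, a mitochondria-specific protein near the exit of the polypeptide tunnel, had the lowest p among the higher members. It was at 55.6, 57.1, 58.7 and 57.8 CPM in A0 and 94.2, 106 and 89.6 CPM in A1, which gave a log2 difference of 0.75 with a standard error of 0.088 (adjusted p = 2.41e-05). Every A1 culture was far above every A0 culture, and the A0 cultures were nearly identical. Mrps23, a small subunit protein, was at 42.5, 35.3, 32.1 and 37.5 CPM in A0 and 58.4, 57.4 and 57.4 CPM in A1 (log2 fold change 0.65, standard error 0.10, adjusted p = 0.000358). Mrpl27, whose bacterial counterpart reaches towards the peptidyl transferase centre, was at 31.6, 24.6, 21.2 and 23.1 CPM in A0 and 40.5, 40.6 and 40.9 CPM in A1 (0.69, standard error 0.13, adjusted p = 0.000882). The A1 cultures of both genes again lay above all A0 cultures. Mrpl54 (0.49), Mrpl18 (0.46) and Mrpl37 (0.36) were also higher, and these 6 kept their call under all 16 alternative settings. Mrpl9 (0.49), Mrpl24 (0.48), Mrpl30 (0.46) and Mrpl11 (0.40) were higher as well, but their calls were lost without 1 or more of the A1 cultures, with adjusted p up to 0.0722, 0.0900, 0.0588 and 0.0946. Mrpl24 sits at the rim of the tunnel exit in the bacterial ribosome and Mrpl11 at the base of the stalk.

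Mrpl40 led the lower members. It was at 82.9, 82.7, 78.2 and 59.4 CPM in A0 and 45.2, 47.8 and 45.7 CPM in A1 (log2 fold change -0.72, standard error 0.12, adjusted p = 0.000398). Mrpl16, which has a bacterial counterpart in the large subunit, was at 213, 226, 195 and 150 CPM in A0 and 132, 134 and 131 CPM in A1 (-0.57, standard error 0.12, adjusted p = 0.00283). For both genes A0 culture 4 was nearest to A1, yet the groups did not overlap. Mrpl12, the counterpart of the bacterial stalk protein that recruits translation factors, was at 419, 308, 246 and 224 CPM in A0 and 221, 211 and 210 CPM in A1. The fitted log2 difference was -0.49, with a standard error of 0.16 and an adjusted p = 0.0399. The groups did not overlap, but A0 culture 1 was far above the rest. Without that culture the value was -0.28 (adjusted p = 0.0873), and the call was also lost without A0 culture 2 or any A1 culture, with adjusted p up to 0.155. Mrps6 (-0.40), Mrps31 (-0.35), Mrpl44 (-0.32), Mrps22 (-0.31), Mrpl4 (-0.29) and Mrpl39 (-0.25) completed the lower set. Each of these 6 lost its call without at least 1 A1 culture, and over all cultures left out in turn the adjusted p reached 0.105, 0.0934, 0.105, 0.139, 0.145 and 0.192 in that order.

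**Figure D2:**
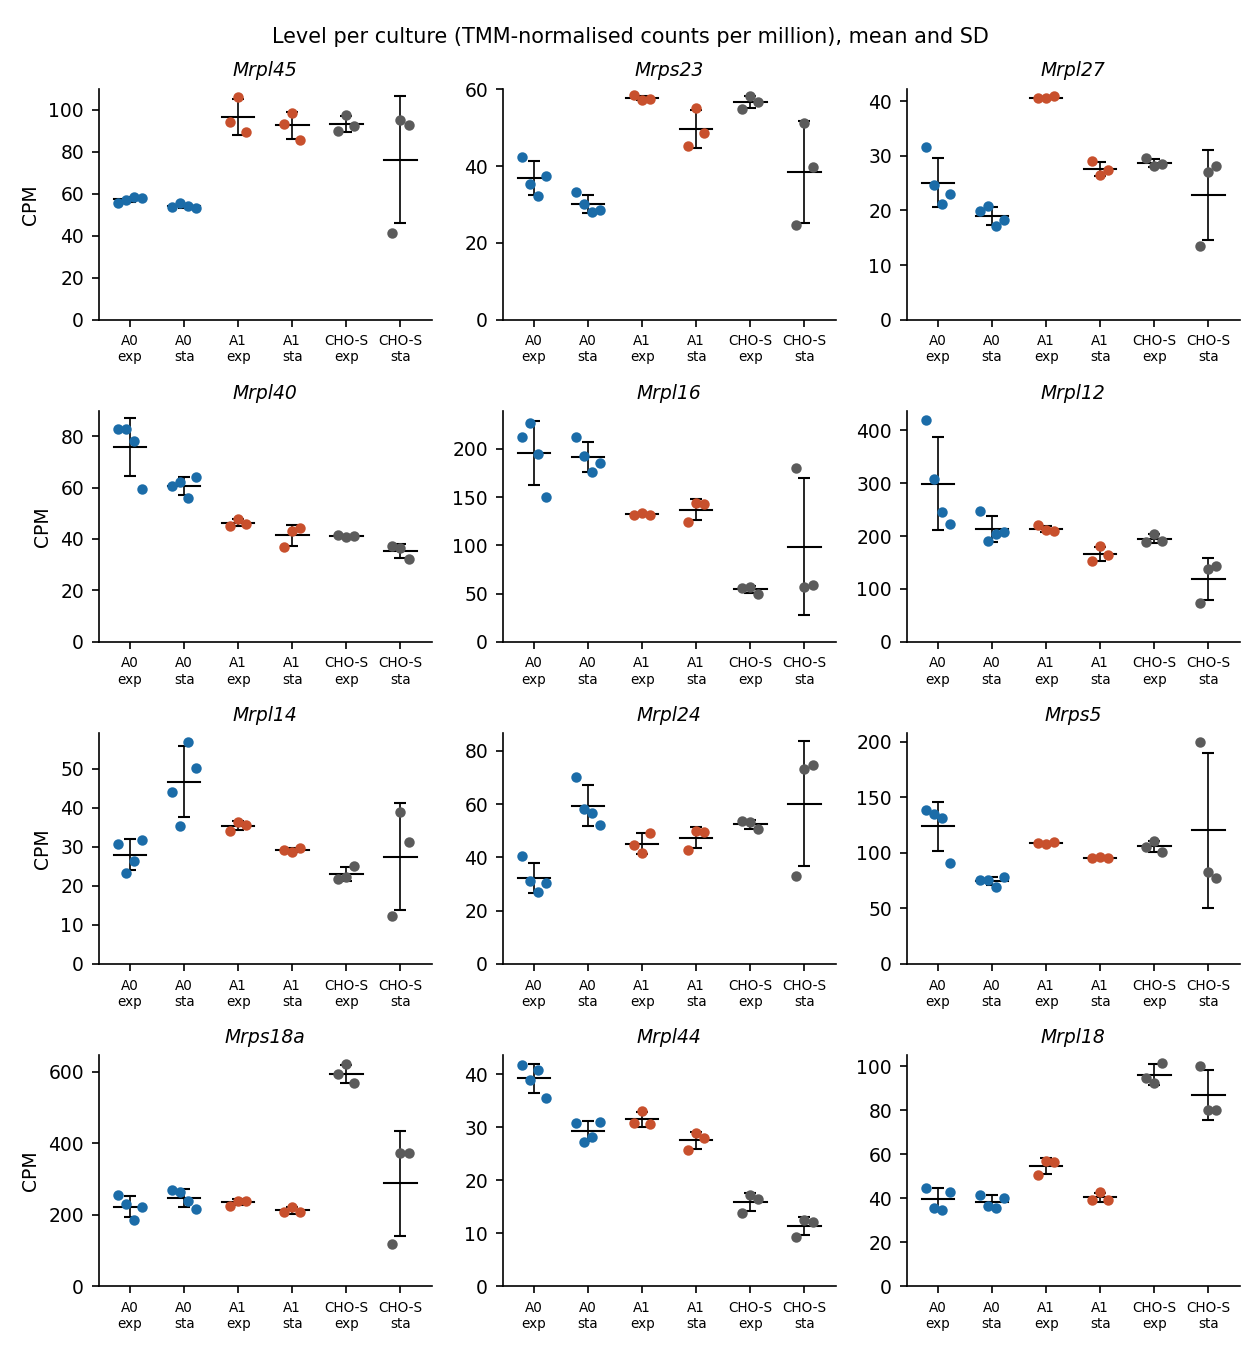
Level of 12 members in each culture (CPM, TMM-normalised, vertical axes from 0) by line and phase; points are cultures, horizontal lines the mean and whiskers the SD. Mrpl45, Mrps23 and Mrpl27 lie higher in A1 than in A0 at both phases, and Mrpl40, Mrpl16 and Mrpl12 lower.

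The exponential count depended on which cultures were used. Against A0 cultures 1 and 2 alone 14 members were higher and 25 lower in A1, where 17.8% and 19.8% of all genes were, and against cultures 3 and 4 alone 21 were higher and 3 lower, where 11.6% and 14.2% were. With only the first A0 library of each culture 22 were higher and 5 lower, where 15.2% and 14.7% were. The total of 26 calls, where 25.9% of all genes were called, became 16 without A0 culture 2, where 20.9% were. Without A1 cultures 1, 2 and 3 it was 10, 13 and 8, where 17.3%, 17.2% and 16% of all genes were called. Mrpl45, Mrps23, Mrpl27, Mrpl40 and Mrpl16 were called in the same direction with either pair of A0 cultures, with log2 fold changes of 0.77 and 0.72 for Mrpl45, 0.56 and 0.72 for Mrps23, 0.53 and 0.87 for Mrpl27, -0.85 and -0.58 for Mrpl40 and -0.74 and -0.39 for Mrpl16. Mrpl12 had -0.77 against cultures 1 and 2 and -0.14 (adjusted p = 0.211) against cultures 3 and 4.

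At stationary phase the balance lay the other way. In A1 11 members were higher, where 16% of all genes were called higher, and 20 were lower, where 17.7% were called lower. The member median was -0.066 and that of all genes -0.002. Among genes named Mrpl 8 were higher and 11 lower, and among genes named Mrps 3 and 9, with Mrps18a among the 9.

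Mrpl45 was at 53.7, 55.6, 54.0 and 53.4 CPM in A0 and 93.3, 98.6 and 85.7 CPM in A1 (log2 fold change 0.76, standard error 0.075, adjusted p = 3.84e-06), and its groups were again wide apart. Mrps23 was at 33.3, 30.3, 28.0 and 28.6 CPM in A0 and 45.4, 55.1 and 48.5 CPM in A1 (0.72, standard error 0.095, adjusted p = 5.02e-05). Mrpl27 was at 19.9, 20.8, 17.1 and 18.3 CPM in A0 and 29.0, 26.4 and 27.5 CPM in A1 (0.53, standard error 0.10, adjusted p = 0.00127). None of these groups overlapped. Mrps26 (0.58) and Mrpl34 (0.57) were higher too, as were Mrpl9 (0.39), Mrps5 (0.35), Mrpl28 (0.31), Mrpl30 (0.30) and Mrpl51 (0.26). Mrpl51 was no longer called without A1 culture 3 (adjusted p = 0.0566), and Mrpl30 reached an adjusted p of 0.0967 with an A1 culture left out. With all 6 groups in 1 fit Mrps5 (adjusted p = 0.197) and Mrpl28 (adjusted p = 0.0821) were not called.

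Among the lower members Mrpl14, a large subunit protein with a bacterial counterpart, fell furthest in A1. It was at 44.1, 35.4, 56.8 and 50.1 CPM in A0 and 29.2, 28.6 and 29.6 CPM in A1 (log2 fold change -0.69, standard error 0.13, adjusted p = 0.000998). The A1 cultures were tightly grouped below a wide A0 range. Mrpl40 was at 60.5, 62.1, 55.9 and 63.9 CPM in A0 and 36.8, 43.0 and 44.3 CPM in A1 (-0.56, standard error 0.089, adjusted p = 0.000254). Mrpl39, which resembles threonyl-tRNA synthetase, was at 101, 96.0, 101 and 96.9 CPM in A0 and 67.0, 76.7 and 71.7 CPM in A1 (-0.47, standard error 0.074, adjusted p = 0.000219). Both groups were apart. Mrpl16 (-0.49), Mrpl53 (-0.42), Mrps27 (-0.39), Mrpl3 (-0.38), Mrpl12 (-0.37), Mrpl19 (-0.36) and Mrps10 (-0.35) were lower too, and their calls held with each culture left out in turn. With all 6 groups in 1 fit Mrpl16 (adjusted p = 0.130) and Mrpl12 were not called, nor at exponential phase were Mrpl16 (adjusted p = 0.0749), Mrpl12, Mrpl4, Mrpl39 and Mrps22. Mrps18a, a protein of the S18 family that sits in the large subunit, was called lower at -0.23 (adjusted p = 0.0468) although its groups overlapped, and the call was lost under 10 of 15 alternatives.

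Of the 76 members tested 17 were called at both phases, 9 at exponential phase alone, 14 at stationary phase alone and 36 at neither. Mrpl9, Mrpl11, Mrpl27, Mrpl28, Mrpl30, Mrpl45 and Mrps23 were higher in A1 at both phases. Mrpl4, Mrpl12, Mrpl16, Mrpl39, Mrpl40, Mrps6, Mrps22 and Mrps31 were lower at both. These 15 are 57.7% of the exponential calls and 48.4% of the stationary calls. The matching shares over all genes are not given here, so these do not tell whether members kept their calls more often than other genes. The 2 comparisons use different libraries, and their log2 fold changes correlated with r = 0.55 over the 76 members and 0.59 over 18706 genes, a description across genes that share libraries and are not independent replicates.

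**Figure D3:**
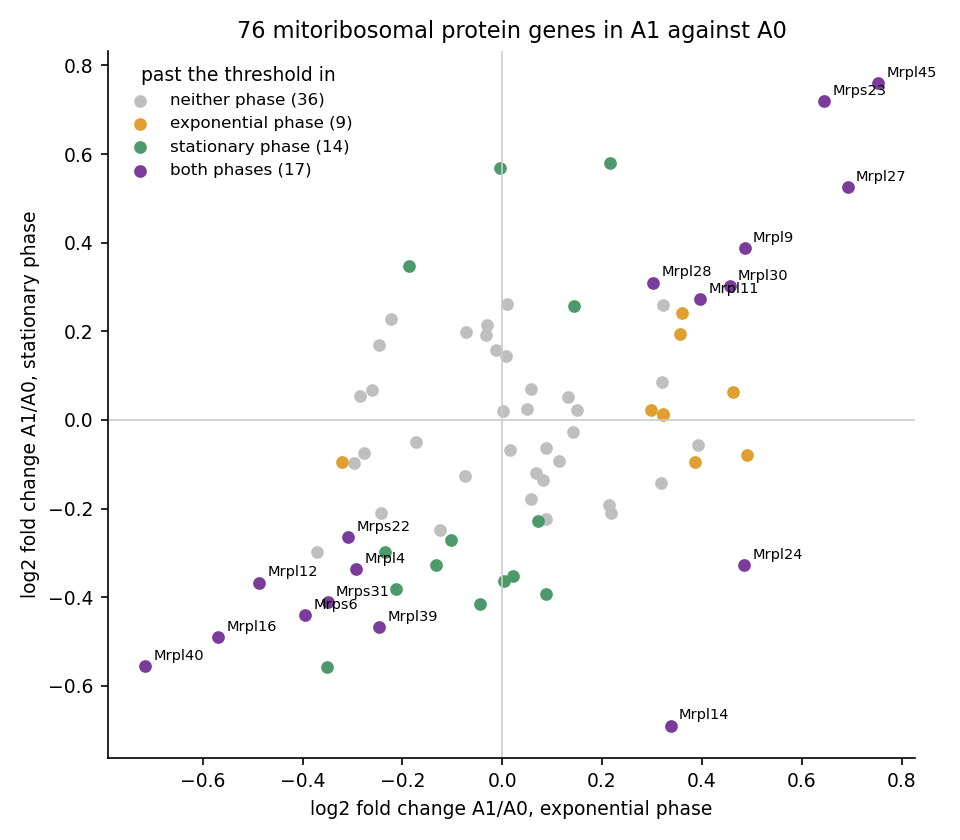
Log2 fold change of A1 over A0 at exponential phase (horizontal) and stationary phase (vertical) for 76 members; each point is a gene and its colour gives the phase in which it passed the threshold. Mrpl45, Mrps23 and Mrpl27 lie at the upper right, Mrpl40 at the lower left, and Mrpl14 and Mrpl24 in the lower right, higher in A1 at exponential and lower at stationary phase.

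Mrpl14 and Mrpl24 were the only members past the threshold in opposite directions. Mrpl24 was at 40.6, 31.0, 27.1 and 30.4 CPM in A0 and 44.6, 41.7 and 49.2 CPM in A1 at exponential phase, and at 70.2, 58.2, 56.7 and 52.2 CPM in A0 and 42.9, 49.9 and 49.4 CPM in A1 at stationary phase. A0 lay below A1 in the first case and above it in the second, with no overlap in either. The difference of the A1-to-A0 log2 fold change between the phases was -0.81 (adjusted p = 0.00449). Mrpl14 was at 30.7, 23.2, 26.3 and 31.6 CPM in exponential A0 against 34.1, 36.4 and 35.6 CPM in A1, and its difference between phases was -1.03 (adjusted p = 0.000918). Both calls held under all 23 alternatives. The same test called 5 of 76 members, where 8.94% of all genes were called, and with the replicate block it called 16, where 16.4% were. Mrpl54 had -0.57 (adjusted p = 0.0196), Mrps27, a pentatricopeptide repeat protein, -0.48 (adjusted p = 0.0468) and Mrps5 0.54 (adjusted p = 0.0296), and their calls were lost under 4, 13 and 11 of the 23 alternatives. Mrps5 was at 139, 135, 131 and 90.9 CPM in exponential A0 and fell to 75.7, 75.7, 69.2 and 78.0 CPM at stationary phase, while A1 had 108, 108 and 110 and then 95.7, 96.5 and 95 CPM.

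The comparison of the phases asks how the module differed once growth had slowed. The 9 proliferation genes checked were called lower at stationary phase in 8 cases in A0 and 8 in A1, Cdk1 not passing the threshold in either (-0.04 and -0.09). In CHO-S stationary culture 1 Top2a (1072 CPM) and Mki67 (761 CPM) lay nearer to exponential CHO-S (1110 to 1143 and 769 to 832 CPM). Stationary cultures 2 and 3 had 666 and 669, and 408 and 424 CPM. Rrm2 (331 CPM) lay between exponential CHO-S (373 to 440 CPM) and stationary cultures 2 and 3 (297 and 248 CPM). In culture 1 Pcna also lay between the phases, and Mcm2, Mcm3, Mcm5, Ccnb1 and Cdk1 lay below cultures 2 and 3. In A1 29 members fell and 0 rose, where 17.8% of all genes fell and 15.6% rose (edgeR). No member was higher at an unadjusted p under 0.05 either, and DESeq2 called 0 higher and 23 lower, where it called 27.2% of all genes. The member median was -0.151 against 0.032 for all genes, and 65 of the 76 values were below 0. Genes named Mrpl made up 16 of the falls and genes named Mrps 13. With all 6 groups in 1 fit there were 6 falls, where 11.6% of all genes were called, and Mrps18b, Mrpl12, Mrps7, Mrpl38 and Mrpl28 were no longer among them.

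Mrpl27 fell from 40.5, 40.6 and 40.9 CPM to 29.0, 26.4 and 27.5 CPM in A1 (log2 fold change -0.55, standard error 0.082, adjusted p = 3.41e-06). Mrpl12 fell from 221, 211 and 210 CPM to 153, 181 and 164 CPM (-0.34, standard error 0.061, adjusted p = 4.07e-05), and Mrpl46 from 29.1, 31.7 and 34.5 CPM to 18.8, 23.6 and 23.9 CPM (-0.49, standard error 0.099, adjusted p = 0.000211). For all 3 the phases did not overlap. Mrps28 (-0.58), Mrpl18 (-0.41), Mrps18b (-0.41), Mrpl32 (-0.41), Mrpl49 (-0.40), Mrps7 (-0.34), Mrpl28 (-0.32) and Mrpl38 (-0.32) fell as well. The median of the proliferation genes was -0.57 in A1.

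In A0 25 members fell, where 20.1% of all genes did, and 9 rose, where 17.7% did. The median was -0.124 against 0.001 for all genes. This fit left the culture numbers out. With them as a block 28 members fell and 12 rose, where 42.7% of all genes were called. Mrpl49 went from 93.0, 84.9, 77.7 and 71.7 CPM to 50.6, 44.5, 48.5 and 48.3 CPM (log2 fold change -0.78, standard error 0.10, adjusted p = 1.38e-05). Mrpl10, which anchors the stalk, went from 74.5, 72.0, 57.4 and 47.3 CPM to 42.6, 42.4, 32.7 and 35.6 CPM (-0.73, standard error 0.14, adjusted p = 0.000589). Neither overlapped between the phases. Mrps5 (-0.74), Mrpl34 (-0.73), Mrps26 (-0.70), Mrps25 (-0.70), Mrps15 (-0.54), Mrps24 (-0.52), Mrpl46 (-0.51) and Mrpl44 (-0.43) also fell. Mrpl24 (0.87), Mrpl14 (0.73), Mrpl53 (0.49), Mrpl23 (0.47), Mrps27 (0.43), Mrpl54 (0.40), Mrpl50 (0.37), Mrpl19 (0.30) and Mrps35 (0.27) rose. The calls of Mrpl50, Mrpl19 and Mrps35 were lost under 3, 5 and 7 of 17 alternatives, with adjusted p up to 0.0749, 0.103 and 0.117 when a culture was left out, among them A0 exponential culture 3 and stationary culture 2 for each.

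The direction of the A0 balance rested on cultures 1 and 2. With these alone 29 members fell and 9 rose, where 22.1% and 19.6% of all genes did, and with cultures 3 and 4 alone 3 fell and 11 rose, where 14.6% and 13.1% did. The first libraries alone gave 18 falls and 15 rises, where 18.9% and 19.2% did. With cultures 3 and 4 alone, Mrpl49 and Mrpl10 kept their calls at -0.63 (adjusted p = 0.00579) and -0.61 (adjusted p = 0.0172). The other 8 of the 10 falls named lost theirs. Among them Mrps25 had -0.39 (adjusted p = 0.0520), Mrps26 -0.45 (adjusted p = 0.0550) and Mrps5 -0.59 (adjusted p = 0.0587), and Mrps15, Mrpl34, Mrps24, Mrpl46 and Mrpl44 had adjusted p of 0.0522, 0.124, 0.0736, 0.122 and 0.0622.

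CHO-S showed few calls with all cultures, with 5 members lower, where 6.48% of all genes were, and 0 higher, where 6.81% were (edgeR; 2 higher at an unadjusted p under 0.05, and 0 with DESeq2). These were Mrps28, Mrps25, Mrpl46, Mrps24 and Mrps26. Mrpl46 was at 29.4, 29.2 and 28.9 CPM at exponential phase and 15.5, 17.5 and 18 CPM at stationary phase (log2 fold change -0.74, standard error 0.10, adjusted p = 0.00549), 2 groups far apart, and had -0.72 without stationary culture 1. Leaving out any culture other than stationary culture 1 left 0 calls, where 0% to 3.36% of all genes were called. Without stationary culture 1 there were 40 falls, where 24.7% of all genes fell, and 9 rises, where 23.1% rose. All 20 calls among genes named Mrps were then falls, and the 29 among genes named Mrpl were 20 falls and 9 rises.

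**Figure D4:**
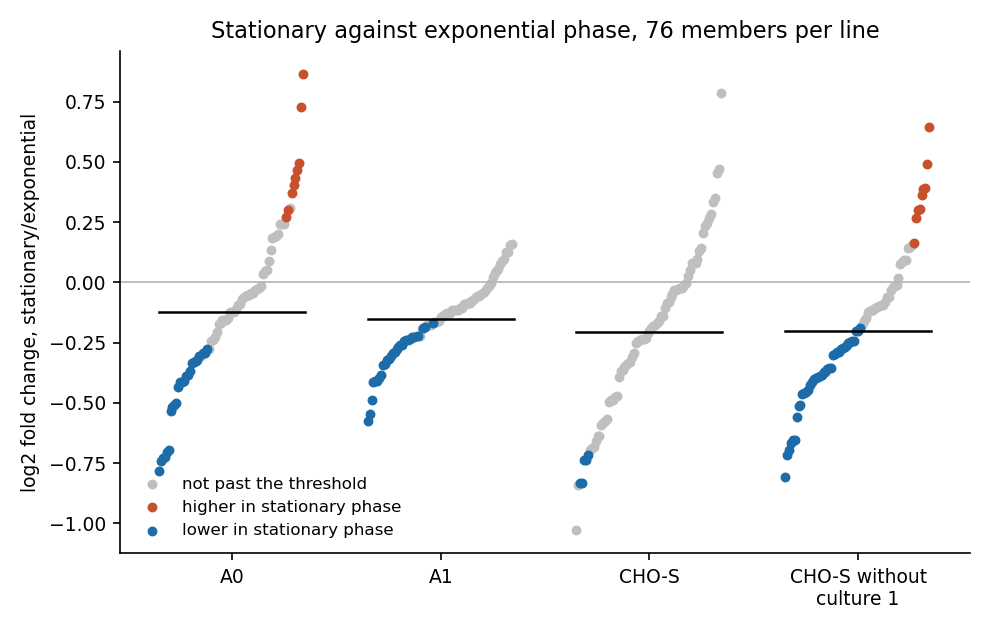
Log2 fold change of stationary over exponential phase for the 76 members in each line, with members in order of value and the median as a line; blue points were lower, red points higher and grey points did not pass the threshold. The medians are -0.124 in A0, -0.151 in A1 and -0.206 in CHO-S, or -0.200 without CHO-S stationary culture 1.

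The phase calls of the 3 lines can be set side by side, as no library is shared. In both A0 and A1 16 members fell: Mrpl10, Mrpl12, Mrpl20, Mrpl27, Mrpl28, Mrpl32, Mrpl46, Mrpl49, Mrps5, Mrps7, Mrps15, Mrps18b, Mrps21, Mrps23, Mrps25 and Mrps26. They are 64% of the A0 falls and 55.2% of the A1 falls, and over the 18201 genes tested in both lines the shares were 55.8% and 68.7%. Of the 16, 12 also fell in CHO-S without stationary culture 1, and Mrpl46, Mrps25 and Mrps26 fell in CHO-S with all cultures. Without that culture 24.7% of all genes fell in CHO-S, and the matching overlap over all genes is not given here. Mrpl14 rose in A0 and fell in A1. In CHO-S without stationary culture 1, Mrpl10 (0.16), Mrpl33 (0.31) and Mrpl34 (0.30), which fell in A0, rose, and Mrpl54 (-0.38) and Mrps27 (-0.42), which rose in A0, fell. Mrpl10 and Mrpl14 (0.64) rose there and fell in A1. Mrpl14, Mrpl24 and Mrpl50 rose in A0 and, without that culture, in CHO-S.

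Both producing lines were set against the same CHO-S cultures, so the values of A0 and A1 are not independent. At exponential phase 23 members were higher in A0, where 27.6% of all genes were, and 19 were lower, where 21.9% were. In A1 31 were higher, where 30% of all genes were, and 22 were lower, where 27.1% were. The member medians were 0.101 in A0 and 0.130 in A1, and those of all genes 0.144 and 0.055. Each line's own values are given side by side.

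Mrpl16 led the higher members in both lines. It was at 55.9, 57.3 and 49.9 CPM in CHO-S, against 150 to 226 CPM in A0 (log2 fold change 1.86, standard error 0.13, adjusted p = 3.17e-08) and 131 to 134 CPM in A1 (1.28, standard error 0.056, adjusted p = 2.90e-15). Mrpl38 was at 49.0, 54.1 and 53.3 CPM in CHO-S, at 122, 129, 118 and 87.2 CPM in A0 (1.14) and at 126, 129 and 120 CPM in A1 (1.26). Mrpl44, which has an RNase III-like fold, was at 13.9, 17.2 and 16.4 CPM in CHO-S, at 35.5 to 41.6 CPM in A0 (1.32) and at 30.5 to 33.1 CPM in A1 (0.99). In all 3 cases CHO-S lay below every A0 and A1 culture. Mrps6 (1.45 in A0, 1.05 in A1), Mrps7 (1.07 and 0.82) and Mrpl36 (0.86 and 1.07) were higher in both.

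Mrps18a led the lower members in both lines. It was at 593, 620 and 567 CPM in CHO-S, at 255, 231, 185 and 220 CPM in A0 (log2 fold change -1.40, standard error 0.10, adjusted p = 5.00e-08) and at 225, 239 and 239 CPM in A1 (-1.35, standard error 0.045, adjusted p = 1.71e-17). Mrpl18 was at 94.6, 92.6 and 102 CPM in CHO-S, at 34.8 to 44.6 CPM in A0 (-1.27) and at 50.4 to 56.9 CPM in A1 (-0.83). Neither gene overlapped between CHO-S and the producing lines. Mrpl9 (-1.08 and -0.60), Mrpl43 (-0.78 and -0.71), Mrpl42 (-0.73 and -0.74), Mrpl51 (-0.70 and -0.57) and Mrpl10 (-0.55 and -0.79) were lower in both. Mrpl45 (-0.69) and Mrps23 (-0.61) were lower than CHO-S in A0, whereas in A1 they had 0.05 (adjusted p = 0.529) and 0.02 (adjusted p = 0.753), with overlapping groups.

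At stationary phase 18 members were higher in A0, where 20.7% of all genes were, and 9 lower, where 19.3% were. In A1 11 were higher, where 18.2% of all genes were, and 9 were lower, where 16.6% were. Without CHO-S stationary culture 1 the counts were 29 (28.0% of all genes) and 16 (23.8%) in A0, and 33 (29.9%) and 19 (27.5%) in A1. Mrpl38 was at 14.4, 38.7 and 37.3 CPM in CHO-S and at 81.8 to 108 CPM in A0 and 98.3 to 99.8 CPM in A1, with log2 fold changes of 1.53 (adjusted p = 0.000915) and 1.59 (adjusted p = 0.00266), or 1.34 and 1.35 without CHO-S culture 1. Mrpl18 was at 100, 80.2 and 80.2 CPM in CHO-S and at 35.5 to 41.5 CPM in A0 and 39.0 to 42.8 CPM in A1 (-1.18, adjusted p = 0.000147, and -1.11, adjusted p = 0.00116), with -1.05 and -1.01 without that culture. CHO-S stood apart from both lines in each case.

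The outlying CHO-S library set the values of single genes. Mrpl16 was at 181 CPM in it and at 56.9 and 58.9 CPM in cultures 2 and 3, and Mrps18a was at 117 CPM against 374 and 372 CPM. With all cultures Mrpl16 had a log2 fold change of 1.02 in A0 (adjusted p = 0.0480) and 0.53 in A1 (adjusted p = 0.363), and without culture 1 it had 1.74 and 1.23. Mrps18a had -0.26 (adjusted p = 0.554) and -0.47 (adjusted p = 0.344), and then -0.58 and -0.84, all 4 of the values without culture 1 being past the threshold. Mrpl44 had 1.29 in A0 and 1.19 in A1 with all cultures and 1.27 and 1.14 without it.

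Whether the phases differed between the producing lines and CHO-S was tested as the interaction of line and phase. With all cultures 7 of 76 members were called between A0 and CHO-S, where 10.3% of all genes were, and 3 between A1 and CHO-S, where 7.60% were. Without CHO-S stationary culture 1 these were 19 (17.2% of all genes) and 21 (25.4%). Mrps27 rose in A0, from 79.8, 68.6, 58.2 and 57.3 CPM to 101, 86.0, 86.0 and 86.6 CPM, and in CHO-S it was at 82.7, 79.3 and 74.6 CPM and then at 46.4, 57.0 and 61.1 CPM. Its difference between the lines was 0.90 (adjusted p = 0.00492), and 0.90 also without culture 1.

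The 3 genes of the S18 family, Mrps18a, Mrps18b and Mrps18c, stand for a single bacterial protein. At exponential phase none was called between A1 and A0 (edgeR), with log2 fold changes of 0.07 (adjusted p = 0.664), 0.15 (adjusted p = 0.261) and -0.37 (adjusted p = 0.0502). At stationary phase Mrps18b had 0.02 (adjusted p = 0.880) and Mrps18c -0.30 (adjusted p = 0.0625). Mrps12, which lines the decoding site, had 0.09 (adjusted p = 0.679) and -0.06 (adjusted p = 0.811). Mrps28 had 0.39 (adjusted p = 0.0503) and -0.06 (adjusted p = 0.789). At exponential phase Mrps28 and Mrps18c each passed the threshold under 7 of 16 alternatives. Mrpl13, the member with the lowest level, had -0.03 (adjusted p = 0.902) and 0.21 (adjusted p = 0.365). Mrpl3 had -0.21 at exponential phase (adjusted p = 0.0919). Mrpl58, a peptidyl-tRNA hydrolase built into the large subunit, is listed under its older name Ict1 and so lies outside the symbol rule. Ict1 was at 79.1, 66.6, 54.7 and 57.5 CPM in A0 and 73.1, 64.2 and 72.0 CPM in A1 at exponential phase, and at 45.5, 44.8, 36.2 and 40.6 CPM and 37.3, 40.0 and 39.5 CPM at stationary phase. It fell between the phases in A0 (-0.64, adjusted p = 0.000578) and in A1 (-0.82, adjusted p = 2.69e-10), and the lines overlapped at each phase.

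The other parts of mitochondrial translation are given by their counts, beside 12% of all genes called higher and 13.8% lower in A1 at exponential phase and 16% and 17.7% at stationary phase. Of 29 genes for mitoribosome assembly and rRNA modification, 7 were higher and 5 lower in A1 at exponential phase and 3 and 5 at stationary phase. The GTPase Noa1 had log2 fold changes of -0.49 and -0.60, Malsu1, which keeps the large subunit from joining too early, -0.55 and -0.55, and Rcc1l -0.48 and -0.78, all past the threshold. Trub2 (0.43 and 0.41) and Rpusd3 (0.33 and 0.36) were higher at both phases. Mettl15 (0.71) and Mrm1 (0.49) were higher at exponential phase alone. Of 14 translation factors 2 were higher and 2 lower at exponential phase, and 1 and 4 at stationary phase. The initiation factor Mtif2 was higher at both (1.01 and 0.97), and Guf1, a GTPase related to a bacterial elongation factor, was lower (-0.85 and -0.95). Of 20 genes for mitochondrial aminoacyl-tRNA synthesis 5 were higher and 3 lower, and then 2 and 6, with the seryl-tRNA synthetase Sars2 higher at both phases (1.14 and 1.56) and the leucyl-tRNA synthetase Lars2 lower (-0.35 and -0.65).

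Among 10 regulators of nuclear genes for mitochondria, Gabpa, the DNA-binding part of a factor known for acting on promoters of such genes, was lower in A1 at both phases (-0.70, adjusted p = 0.000189, and -0.69, adjusted p = 1.87e-05). Gabpb1, its partner, was higher at exponential phase (0.29), and Pprc1 (-0.36) and Creb1 (-0.36, adjusted p = 0.0157, edgeR) were lower. The paper, which used DESeq2, observed no change of CREB1 mRNA between A1 and A0, and the reason for the difference was not tested. Nrf1 had -0.26 (adjusted p = 0.0731) and Esrra -0.28 (adjusted p = 0.184) at that phase. At stationary phase Esrra was lower (-0.32, adjusted p = 0.0454), Gabpb2 (0.35, adjusted p = 0.00485) and Ppargc1b (0.37, adjusted p = 0.0278) were higher, and Creb1 had -0.05 (adjusted p = 0.809). Of 12 genes for mitochondrial transcription and DNA, 0 were higher and 3 lower, and then 3 and 2. Of 6 mitoribosomal proteins outside the symbol rule, Dap3 was higher at both phases (0.29 and 0.27) and Ptcd3, a pentatricopeptide repeat protein, lower (-0.59 and -0.22). Chchd1 was lower at stationary phase (-0.55, adjusted p = 0.00278, edgeR) but not past the threshold at exponential phase (-0.27). Ict1, Gadd45gip1 and Aurkaip1 passed it at neither phase. Cytosolic ribosomal proteins, measured for comparison, had 13 of 76 higher and 14 lower at exponential phase, and 6 higher and 37 lower at stationary phase, with a median of -0.20. The nuclear subunits of oxidative phosphorylation had 13 of 56 higher and 7 lower, and 18 and 7.

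Between the phases in A1, where 17.8% of all genes fell and 15.6% rose, assembly genes gave 9 falls and 2 rises, translation factors 5 falls and 0 rises, aminoacyl-tRNA synthesis 8 and 0, and oxidative phosphorylation 23 and 2. The elongation factor Gfm1 fell in A0 (-0.74) and A1 (-0.65), and so did Tfam, which packages mitochondrial DNA and helps start its transcription (-0.55 and -0.36), and Gabpb1 (-0.77 and -0.80). Cytosolic ribosomal proteins gave 27 rises and 9 falls in A0 and 15 and 10 in A1. In CHO-S without stationary culture 1 they gave 61 falls and 1 rise.

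The members were also set beside the genes that lie next to them. The 10 nearest tested genes of at least 5 CPM, 5 on each side and none of them a member, were read from the RefSeq annotation of assembly CriGri-PICRH-1.0 for the 54 members with such values, of 56 placed. At exponential phase the log2 fold change of A1 over A0 of a member correlated with the median of its neighbours with r = 0.57, against 0.42 over 7972 genes treated the same way. At stationary phase the values were 0.77 over 54 members and 0.35 over 7969 genes. All of these genes share libraries, and adjacent members share neighbours, so these are descriptions. Of the called members, 18 of 18 had the sign of their neighbours' median at exponential phase and 20 of 21 at stationary phase, Mrps2 being the exception. Over all called genes 82.0% and 73.5% did. Over the 54 members, called or not, 70.4% did at exponential phase, against 69.8% of all 7972 genes. At stationary phase the shares were 75.9% of the members and 65.1% of all genes.

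The 10 neighbours of Mrpl45 all had values above 0 at exponential phase, 7 of them past the threshold, with a median of 0.38, and at stationary phase the median was 0.55. Those of Mrpl27 had medians of 0.49 and 0.76, and those of Mrps23 0.31 and 0.43. Those of Mrpl40 had -0.46 and -0.42, and those of Mrpl39 -0.45 at stationary phase. The neighbours of Mrps5 had 0.45 and 0.49, while Mrps5 itself had -0.19 (adjusted p = 0.309) and 0.35. At exponential phase the 10 neighbours of Mrpl10 had the same median as those of Mrpl45, 0.38, while Mrpl10 itself had -0.22. Mrps25 (-0.25 against 0.21) and Mrpl49 (-0.28 against 0.18) also differed in sign from their neighbours' median at that phase. None of these members was past the threshold there. The neighbours of Mrpl16 (-0.11 and -0.22) and of Mrpl12 (-0.07 and -0.19) were much nearer to 0 than the genes themselves.

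**Figure D5:**
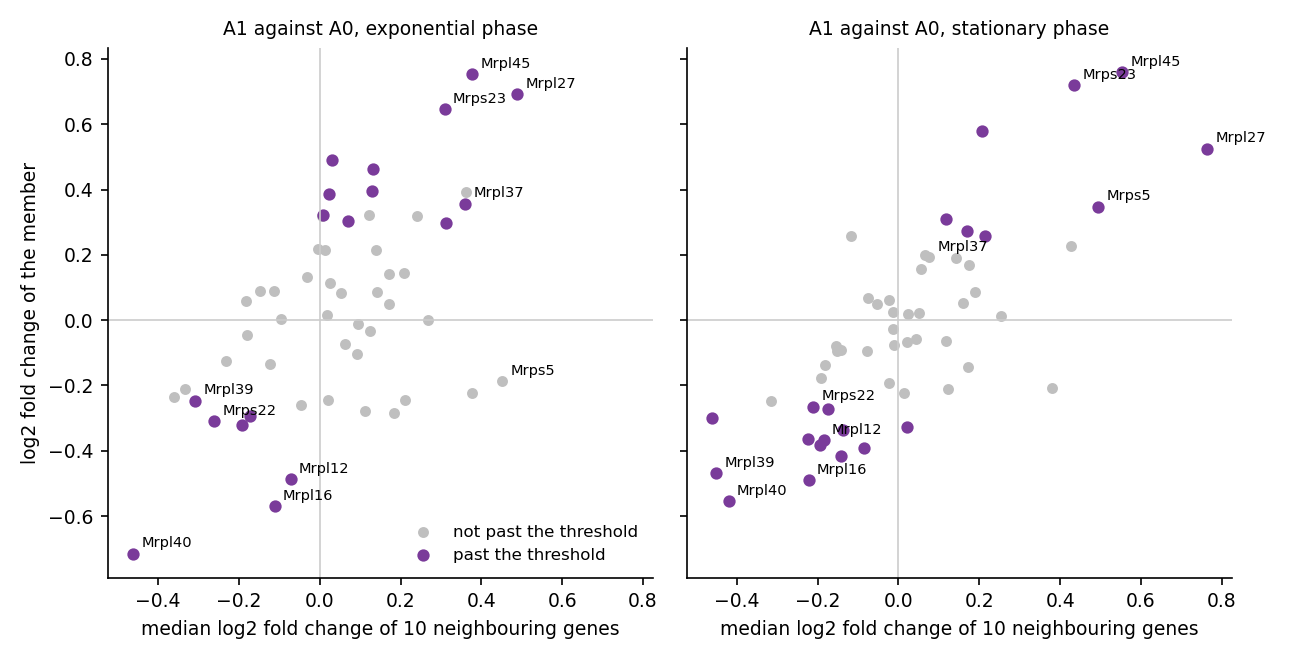
Log2 fold change of A1 over A0 of 54 members (vertical) against the median of their 10 neighbouring genes (horizontal), at exponential phase on the left and stationary phase on the right; purple points passed the threshold and grey points did not. Mrpl45, Mrpl27 and Mrps23 lie at the upper right with their neighbours and Mrpl40 at the lower left.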

How the data were processed

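RNA was sequenced from 24 libraries of 20 cultures in 6 groups. Per the methods and the submitters' processing notes, stranded mRNA libraries were aligned with STAR 2.5.4b to the C_griseus_v1.0 assembly and reads were counted per gene with HTSeq-count 0.7.2. The authors deposited raw counts per gene, with no normalisation. Reads that align to several places were left out, so genes with near-identical copies are uncertain, and the strand setting of the counting is not given in the sources used here. The 5 summary lines that name no gene held 31.8% to 49.8% of the entries per library and were left out.

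The libraries of 1 A0 exponential culture were summed. The filter kept genes that varied and were counted at least once (1 read) in 2 or more cultures, and these entered edgeR 4.0.16 (quasi-likelihood test, two-sided, TMM) in R 4.3.3, separately for each comparison, and p-values were adjusted over all genes tested (Benjamini-Hochberg, threshold 0.05). CPM were computed with TMM over all 20 cultures, and fold changes come from the fit of each comparison. Differences between phases were tested as the interaction of line and phase. Tables, neighbours and plots used Python 3.11.15, pandas 2.3.3, scipy 1.17.1 and matplotlib 3.10.9. Neighbours came from a RefSeq table of another assembly, CriGri-PICRH-1.0, which was used for names and gene order only. Of the members, 76 gene IDs were in it, 75 with the same symbol. Reference sequences on which more than 20% of coding genes overlap were left out, and 7 of the 56 members placed overlap another gene, among them Mrpl27, Mrpl38, Mrpl39, Mrpl49 and Mrps25. The scripts were tested on simulated data.

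The alternatives were DESeq2 1.42.0, other size factors, other filters, all 6 groups in 1 fit, the culture number as a block, each culture left out, each pair of A0 cultures and the first A0 libraries alone. Same-numbered A0 cultures deviated together between the phases (r = 0.43, 0.32, 0.27 and 0.19), which was taken as pairing. Cultures 1 and 2 also correlated across numbers (0.18 and 0.24), as did cultures 3 and 4 (0.33 and 0.27), so the samples fall into these pairs of cultures as much as into single numbers. The main fits used no block. Between the phases in A0 the block gave 40 members called, where 42.7% of all genes were, in place of 34, where 37.7% were. Named genes were, per comparison, up to 10 higher and 10 lower members of lowest p (up to 5 and 5 against CHO-S), those called in the A1 and A0 interaction, and a set named whatever its values. Members and genes named beyond these were chosen after their values were seen. The members and gene lists were chosen with earlier results of these data known. The expression check of the line labels is not reported here.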

Additional observations from a re-analysis of the deposited data

Results flagged for a closer look

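In 104 groups of 4 A0 cultures, 3 had a culture apart from the rest by the ratio of its gap to the range of the group, where chance flags about 1 in 20 groups (5.2 here). Mrps6 was at 20.1 CPM in A0 stationary culture 2 against 23.8 to 24.2 CPM in the others (ratio 0.899). Mrps5 was at 90.9 CPM in A0 exponential culture 4 against 131 to 139 CPM (ratio 0.844), and Mrps27 was at 101 CPM in A0 stationary culture 1 against 86.0 to 86.6 CPM (ratio 0.956).

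The log2 fold change of stationary over exponential phase differed between A1 and A0 for Mrpl14 (A1 minus A0 -1.03), Mrpl24 (-0.813), Mrpl54 (-0.568), Mrps27 (-0.481) and Mrps5 (0.535), by the interaction of line and phase in edgeR. Between A0 and CHO-S it differed for Mrps18a (A0 minus CHO-S 1.13), Mrps27 (0.904), Mrpl54 (0.889), Mrps9 (0.627), Mrpl30 (0.59), Mrpl49 (-0.629) and Mrpl34 (-0.989). Without CHO-S stationary culture 1 these 7 values were 0.847, 0.896, 0.82, 0.604, 0.656, -0.625 and -0.973. Between A1 and CHO-S it differed for Mrpl48 (0.588), Mrpl30 (0.484) and Mrpl14 (-0.779), and without that culture the values were 0.498, 0.468 and -0.917.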

How the results depend on the processing

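No named member past the threshold changed sign under any alternative. Brackets below give the share of all genes called in the same fit. Fitting all 6 groups together moved the number of members called to 19 (24.1%) from 31 (33.7%) for A1 against A0 at stationary phase. Against CHO-S at stationary phase it gave 44 (44.6%) from 27 (40%) for A0 and 34 (38.8%) from 20 (34.8%) for A1. For A1 against CHO-S at exponential phase it gave 30 (35.3%) from 53 (57.2%). Between the phases it gave 6 (11.6%) from 29 (33.4%) in A1 and 24 (19.2%) from 5 (13.3%) in CHO-S. In the interaction of A1 and A0 it gave 2 (4.56%) from 5 (8.94%). For A0 and CHO-S it gave 19 (14.7%) from 7 (10.3%), and for A1 and CHO-S 0 (5.49%) from 3 (7.6%). A0 cultures 3 and 4 alone gave 14 (27.8%) between the phases in A0 and 14 (29.7%) for A0 against CHO-S at stationary phase. In the first 2 interactions they gave 10 (9.06%) and 2 (5.5%). In the first interaction cultures 1 and 2 alone gave 19 (22.7%), and the first libraries gave 12 (11.5%) there and 12 (11.5%) in the second. DESeq2 gave 10 (15.7%) between the phases in CHO-S and 16 (14.4%) in the interaction of A0 and CHO-S. With the replicate block there were 36 calls (31%) in place of 26 (25.9%) for A1 against A0 at exponential phase. Between the phases in CHO-S there were 0 (2.02%). The interaction of A1 and A0 then had 16 (16.4%) and that of A1 and CHO-S 0 (2.63%). Outside the A0 phases, samples with the same number share only a number. The cause of these shifts was not tested.

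With each culture left out, the calls for A1 against A0 at exponential phase ranged from 8 to 32 (16% to 30.8% of all genes). At stationary phase they ranged from 23 to 31 (25.6% to 34.1%). For A0 against CHO-S they ranged from 36 to 47 (42% to 52.4%) and from 21 to 45 (29.4% to 51.8%). For A1 against CHO-S they ranged from 45 to 54 (53.7% to 57%) and from 9 to 52 (22.8% to 57.4%). Between the phases they ranged from 26 to 39 (33.1% to 38.7%) in A0 and from 20 to 27 (28.3% to 30.7%) in A1. In CHO-S the range was 0 to 49 (0% to 47.7%). In the interactions they ranged from 2 to 10 (4.81% to 12.8%), 2 to 19 (6.61% to 17.2%) and 0 to 21 (4.01% to 25.4%). The values 45, 52 and 49 came from leaving out CHO-S stationary culture 1, the library of lowest depth. A1 against CHO-S at stationary phase gave 12 (24.4%), 11 (23%) and 9 (23.2%) when A1 cultures 1, 2 and 3 were dropped in turn. It gave 12 (24.3%) when CHO-S stationary culture 3 was.

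Signs changed for values that did not pass the threshold. At exponential phase, with each culture left out, Mrps12 ranged from -0.0070 to 0.139, Mrps18a from -0.0103 to 0.145 and Mrpl13 from -0.0845 to 0.0359, and A0 cultures 1 and 2 alone gave -0.0430 for Mrps12 and -0.0573 for Mrps18a. At stationary phase Mrps12 ranged from -0.278 to 0.0728 and Mrps18b from -0.0205 to 0.0904 with each culture left out. A0 cultures 3 and 4 alone gave 0.0435 for Mrps12 and 0.0386 for Mrps28 at that phase, and Mrps18b had -0.0112 with the block and -0.10 with the other pair.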
